A study of Mus musculus with 2 samples.

Results

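Mouse heart RNA precipitated with FLAG-NAT10 was mapped as summits, the single bases where signal in the pulldown over Input peaked, and the summits described here are those that lay in the 3' untranslated region (3' UTR) of exactly 1 gene. A summit was a member when the deposited table placed its centre in a 3' UTR and counted 1 overlapped gene, and each summit was taken once. This gave 682 of 2020 summits (33.8%, exact 95% interval 31.7 to 35.9), in 567 genes. A further 61 summits in a 3' UTR overlapped several genes and were left out. The series held 2 libraries. The RIP library was RNA precipitated with anti-FLAG beads, and the Input library was RNA from 10% of the same heart lysate. Both came from wild-type mice that received, at day 1 after birth, the vector AAV9-cTnT-FLAG-NAT10 under the skin, whose cTnT promoter works in cardiomyocytes, and that were killed 20 days after injection. About 60 mg of heart tissue was lysed, and the number of hearts behind a library is not given in the labels. The bait was thus an added, tagged copy of the protein, on top of the gene's own product, and no pulldown from hearts without it was analysed here. There was 1 library of each kind and no replicate, so no value below has a replicate check and no test between the libraries was possible. Intervals are exact binomial intervals and cover counting error only.

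NAT10 is an enzyme that acetylates cytidine in RNA, forming N4-acetylcytidine. It is best known for its work on ribosomal and transfer RNA in the nucleolus, and it has also been linked to messenger RNA. The 3' UTR follows the stop codon and carries sites for microRNAs and RNA-binding proteins that set how long a message lives, where it goes and how well it is translated. Each summit carries a score of the authors. Its column header was lost to a spreadsheet error, and it was read as the peak caller's -log10 value from its range, since the lowest score of the list, 1.32, lies just above 1.30, the -log10 of 0.05. Whether it is of a p-value or a q-value is unknown. A score can rise both with enrichment in the pulldown and with abundance of the RNA, and the table gives no counts, no fold enrichment and no Input level. Sequencing depth is therefore unknown. Positions are those of the mouse build GRCm38.

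Many of the 3' UTR summits lay in a narrow band close to the 3' end of their gene. For 627 summits in 523 genes, the distance to the 3' end of the gene (RefSeq, GRCm38) was no longer than the annotated 3' UTR. Of these, 273 lay 150 to 300 bases from the end (43.5%, interval 39.6 to 47.5). This stretch made up a mean of 11.7% of the 3' UTR that held the summit, a ratio of 3.72 (3.39 to 4.06). Here and below, a share of bases is such a mean over summits, not a share of all bases pooled. Each summit counts equally whatever the length of its 3' UTR, and a 3' UTR with several summits counts once for each. The band was sharpest between 200 and 250 bases, with 144 summits where bases alone would give 24.6. The last 150 bases before the end held 7 summits (1.12%, 0.450 to 2.29) against 12.2% of bases. The window limits were chosen after the distances had been seen. The same window also held coding summits of the last exon, 32 of 134 (23.9%, 16.9 to 32.0). It was thus not particular to 3' UTR summits, and no share of bases was set beside the coding summits.

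**Figure D1:**
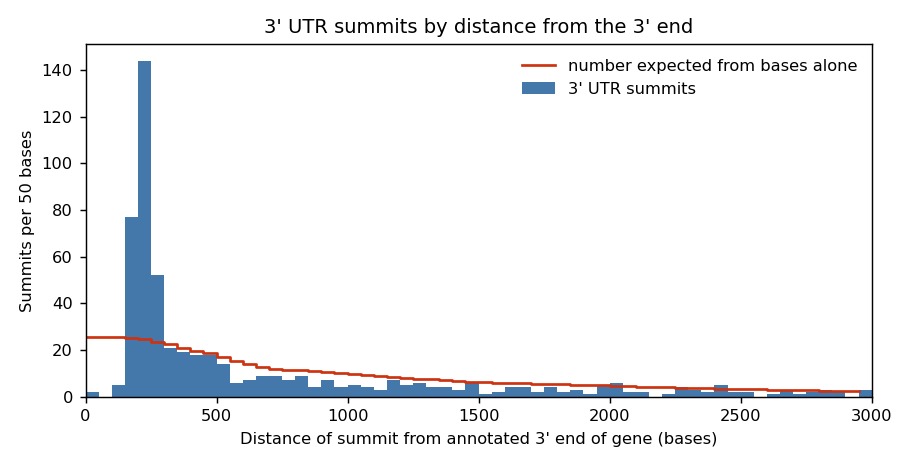
Number of 3' UTR summits (bars) per 50 bases of distance from the annotated 3' end of the gene (x axis, bases, up to 3000). The line is the number that would result if each summit fell evenly along its own 3' UTR. The bars rise above the line between 150 and 300 bases, with 144 summits between 200 and 250 bases, and lie below it nearer the end.

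Examples of this band came from genes of unrelated roles. Mfn2, mitofusin 2, which joins the outer membranes of mitochondria, scored 272 at 147873775 on chromosome 4, 189 bases from the end. Gpx3, the secreted glutathione peroxidase, had 202 at 54910207 on chromosome 11, 180 bases from the end. Ucp2, a carrier of the mitochondrial inner membrane, had 174 at 100499441 on chromosome 7, 188 bases from the end. All 3 summits thus sat within 10 bases of one another when counted from the end, although the annotated 3' UTRs were 1790, 1940 and 2670 bases long. Pkm, pyruvate kinase of glycolysis, had 141 at 179 bases, and Tcap, the titin cap of the Z-disc, had 109 at 217 bases. Of the 20 genes with the highest 3' UTR score, 11 had their strongest summit in this band, a share near that of all genes with a placed summit. Among those, it was 259 of 523 (49.5%).

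Exceptions stood far from the end. Lpl, lipoprotein lipase, held the highest score of all 3' UTR summits, 391 at 68905702 on chromosome 8, 1230 bases from the end and near the middle of its 3' UTR of 2428 bases. Usp13, a deubiquitinase, had 179 at 32933372 on chromosome 3, 4703 bases from the end of a 3' UTR of 4841 bases, and so just after the stop codon. A second and weaker Usp13 summit, 36.1, lay in the band at 228 bases. Fabp3, the heart fatty acid binding protein, had 223 at 130315334 on chromosome 4, only 129 bases from the end, but its 3' UTR was 238 bases long. In all, 195 summits (31.1%) lay 1000 bases or more from the end, against 43.0% of the bases.

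The band held in short and in long 3' UTRs. Where the 3' UTR had at least 1000 bases, 160 of 466 summits lay in it (34.3%, 30.0 to 38.8) against 6.31% of bases, a ratio of 5.44. In shorter 3' UTRs it held 113 of 161 (70.2%, 62.5 to 77.1) against 27.3% of bases, a ratio of 2.57. The share was lower in genes with 2 or more 3' UTR summits, 41 of 191 (21.5%, 15.9 to 28.0) against 7.86% of bases, a ratio of 2.73. In genes with 1 it was 232 of 436 (53.2%, 48.4 to 58.0) against 13.4%, a ratio of 3.98. When each 3' UTR was cut into 5 equal parts, these held 109, 90, 113, 120 and 195 of the 627 summits in order from the stop codon, so that the part nearest the end held 31.1% (27.5 to 34.9). These parts set a RefSeq end against a GENCODE 3' UTR length, and where the 2 models differ the place of the stop codon is off. A further 44 summits lay farther from the end than the 3' UTR is long and were not placed. Weak summits were in the band less often than the others. Below the lower quartile of scores 34 of 158 summits lay there (21.5%, 15.4 to 28.8). In the next 3 score classes between quartiles it was 66 of 151 (43.7%, 35.7 to 52.0), 85 of 157 (54.1%, 46.0 to 62.1) and 88 of 161 (54.7%, 46.6 to 62.5). The share of bases was 9.93%, 10.1%, 13.0% and 13.7% in these 4 classes. The intervals treat summits as independent, though 1 gene can hold several, and differences between classes were not tested. Score and number of summits per gene were not separated. Read coverage along the 3' UTR was not analysed here in either library.

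**Figure D2:**
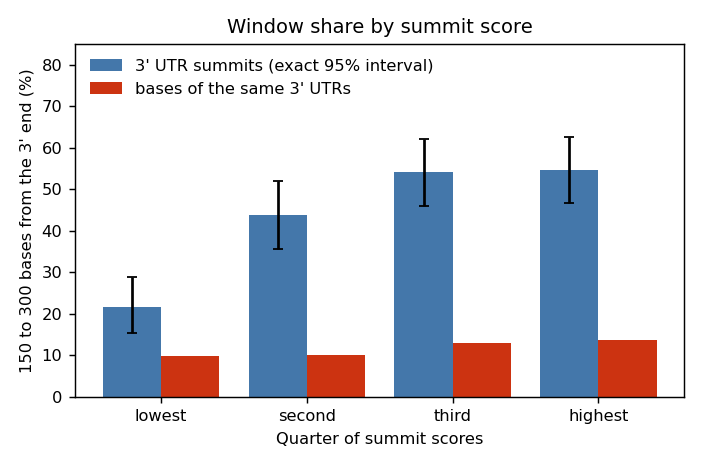
Share of 3' UTR summits that lay 150 to 300 bases from the 3' end (left bars, percent, with exact 95% intervals) in each of 4 score classes split at the quartiles. Right bars give the share of bases in that window, as a mean over the summits of the class. The share was 21.5% in the lowest class and between 43.7% and 54.7% in the next 3.

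The median score of the 682 summits was 13.4 (quartiles 6.60 and 27.1), and scores ran between 1.33 and 391. Summits in coding exons of exactly 1 gene (853) scored 10.4 at the median (quartiles 5.41 and 24.97). The difference of medians was 2.91, and it turned to -0.76 when only summits at or above the median score of the whole list were kept. It was 2.30 at or above the upper quartile and 4.33 without Ttn, so the direction depended on the threshold. A score of 100 or more was reached by 27 of the 3' UTR summits, each in a different gene, and 266 were under 10. No 3' UTR summit lay on the mitochondrial chromosome, which held the highest scores of the list. The 3' UTR label rests on gene annotation, so this count does not describe where signal fell on mitochondrial RNA.

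Of the 567 genes, 465 had no summit other than these 3' UTR summits (82.0%, 78.6 to 85.1). They were 50.6% of the 919 protein-coding genes with any summit and 2.14% of the 21770 annotated, of which 4.22% had any summit. The other 102 genes had a summit elsewhere as well, 88 of them in a coding exon, 21 in an intron and 11 in a 5' UTR, and 2 only in a stretch of 3' UTR shared with another gene. The strongest 3' UTR score per gene had a median of 13.9 (quartiles 7.50 and 25.1) in the 465 genes, against 26.3 (13.2 and 69.0) in the 102 genes with another summit. Among genes with 1 summit in all, the 386 with it in the 3' UTR had a median of 12.9 (7.51 and 22.8), against 7.93 (4.72 and 17.2) for the 145 with it in a coding exon.

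Where a gene had summits in both regions, the 3' UTR usually held the stronger one. Coding exon summits were counted here only where they lay in exactly 1 gene, which left 84 of the 88 genes. The 3' UTR was the stronger in 65 of these 84 (77.4%, 67.0 to 85.8), and in 24 of the 32 genes with exactly 1 summit of each kind (exact interval 56.6% to 88.5%). In the 84 genes the strongest 3' UTR score had a median of 28.7, against 11.1 for the strongest coding exon score. The coding exon summit was stronger in 18 genes, and in Tcf20 both scores were equal. Mfn2 had 272 in the 3' UTR against 2.91 in its coding exon. Usp13 had 179 against 5.74. Ctnna1, alpha-catenin of the adherens junction, had 107 against 2.58, and Eif4g1, the scaffold of the cap-binding complex, had 152 against 7.94.

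This held also for genes with many coding exon summits, where the highest of many values was set against that of 1 or 2. Of 16 genes with 5 or more coding exon summits in exactly 1 gene, 15 had their strongest one in the 3' UTR. Myom2, an M-band protein of the sarcomere, scored 233 in the 3' UTR against a highest of 46.1 among 10 coding exon summits. Pde4dip, myomegalin, scored 197 against 42.6 among 21, and Ahnak, a giant scaffold protein, 165 against 44.9 among 28. In Dst, Akap6 and Pdzd2 both scores were nearly the same, 27.0 against 25.5, 13.7 against 13.3, and 11.5 against 10.7. The exception was Ryr2, the calcium release channel of the sarcoplasmic reticulum, with 127 in the 3' UTR, 201 bases from the end, against 160 among its 52 coding exon summits.

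**Figure D3:**
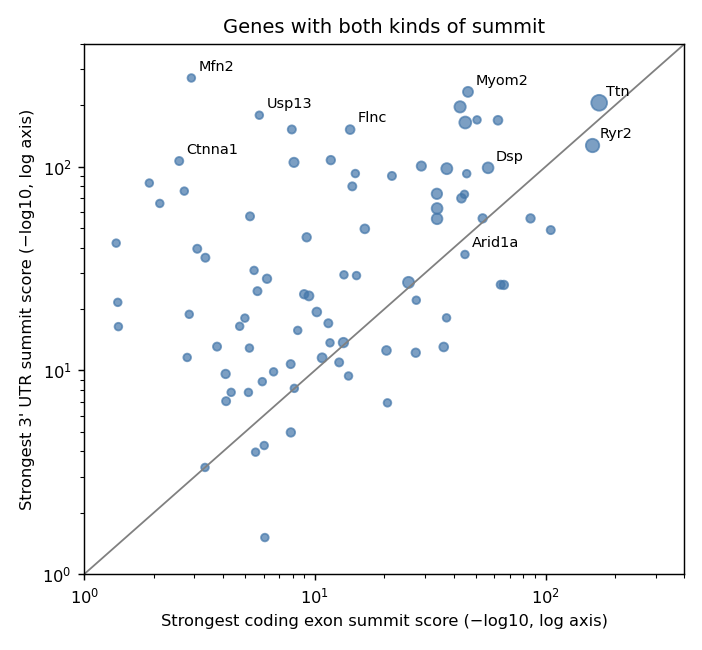
Strongest 3' UTR summit score (y axis, -log10 value on a log axis) against the strongest coding exon summit score (x axis, same scale) in the 84 genes with both, counting coding exon summits in exactly 1 gene, where larger points have more coding exon summits and the line marks equal scores. Of the 84 points, 65 lie above the line, with Mfn2 farthest above it, and Ryr2 lies below.

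The genes with only 3' UTR summits were sorted into 10 roles by hand, from textbook knowledge and after their names had been seen, which placed 438 of 465. Transcription and chromatin was the most numerous role with 104 genes (22.4%), followed by sarcomere, cytoskeleton and cell adhesion with 70, intracellular signalling with 62, and ubiquitin, proteolysis, chaperones and autophagy with 46. RNA binding, processing and translation had 39, metabolic enzymes 30, vesicle traffic 25, mitochondria and redox 24, secreted ligands and receptors 20, and calcium handling, channels and membrane transport 18. The share of a role's genes that had only 3' UTR summits was lowest for the sarcomere and cytoskeleton role, 70 of 100 (70.0%, 60.0 to 78.8), against 104 of 126 for transcription and chromatin (82.5%, 74.8 to 88.7), and these intervals overlapped. Median strongest scores lay between 10.7 for vesicle traffic and 19.2 for mitochondria and redox.

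**Figure D4:**
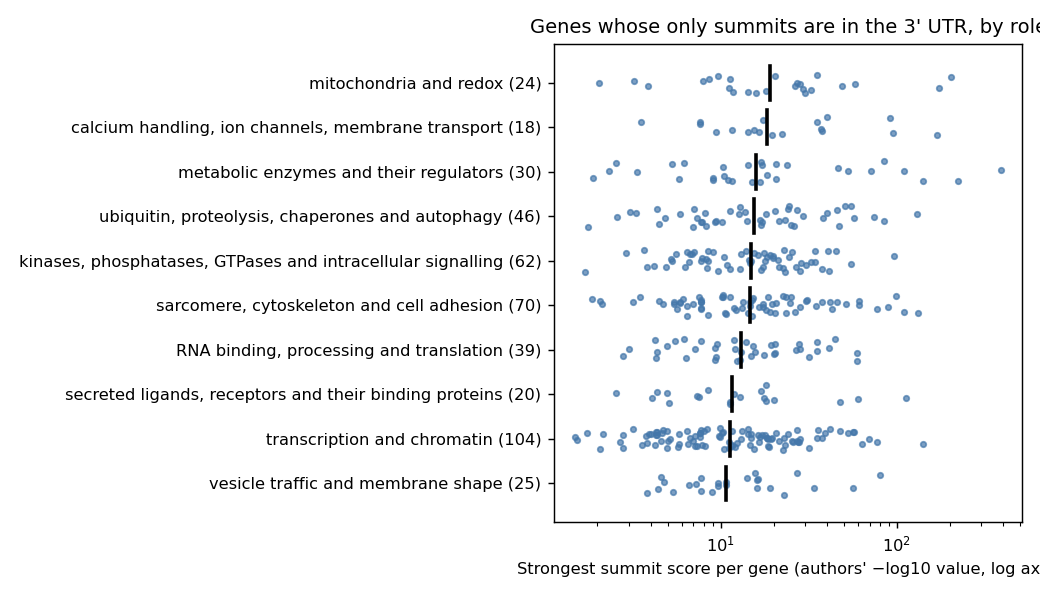
Strongest summit score (x axis, authors' -log10 value on a log axis) of each gene whose only summits were in the 3' UTR, by role, with the number of genes in brackets. Each point is 1 gene and the black bar is the median, between 10.7 for vesicle traffic and 19.2 for mitochondria and redox.

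Metabolic enzymes held some of the strongest genes with only 3' UTR summits. After Lpl, Fabp3 and Pkm, Pdk2, a kinase that switches off pyruvate dehydrogenase, scored 109, and Pygm, the muscle glycogen phosphorylase, 84.7. Gmpr, GMP reductase of purine salvage, had 71.7, the aspartate aminotransferase Got1 52.9 and Cpt2, which completes carnitine-dependent fatty acid import into mitochondria, 46.2. Weaker members were Mgll, monoacylglycerol lipase, at 23.8, the ketone-using enzyme Oxct1 at 16.8 and the acyl-CoA dehydrogenase Acadm at 11.6. Of the 30 genes, 7 reached a score of 50, beside 43 of all 465 genes with only 3' UTR summits, and this difference was not tested.

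In the mitochondria and redox role, the secreted Gpx3 and the mitochondrial Ucp2 were followed by the chaperone Hspa9 at 57.5 and Phb, prohibitin, at 49.1. Glrx5, a glutaredoxin of iron-sulfur cluster assembly, had 30.3, Perm1, a muscle regulator of mitochondrial genes, 27.3, and Twnk, the helicase of mitochondrial DNA, 26.6. Mfn1 had 14.2, far under its partner Mfn2, and Tfam, which packages mitochondrial DNA, had 7.97. All 24 genes had exactly 1 summit in the 3' UTR, beside 386 of all 465 genes with only 3' UTR summits (83.0%), and this difference was not tested.

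Contractile and cytoskeletal genes with only 3' UTR summits included Cfl1, the actin-severing protein cofilin, at 132, Tcap, Crip2, a LIM protein, at 98.8, and Popdc2, a cAMP-binding membrane protein of the heart, at 88.7. Fhl1, a LIM protein of the sarcomere, had 77.5, Des, desmin of the intermediate filaments, 60.8, and Actb, beta-actin, 37.5. Other sarcomere genes had summits elsewhere too. Ttn had a 3' UTR score of 206 at 231 bases from the end, Flnc, filamin C, 152 at 198 bases and Mybpc3, the cardiac myosin binding protein C, 169 at 160 bases, and each had coding exon summits. Among genes of excitation, Kcnk3, a background potassium channel, led with 170, followed by junctophilin Jph2 at 95.2, Rrad, a small GTPase that restrains calcium channels, at 91.6, Srl, sarcalumenin, at 40.1, caveolin Cav3 at 37.4 and calsequestrin Casq2 at 35.2. Hcn2, a pacemaker channel, was weak at 3.51.

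Genes of transcription and chromatin were many, with a median strongest score of 11.4 in the 104 genes, beside 13.9 in all 465 genes with only 3' UTR summits. A score of 20 was reached by 27 of the 104 and by 151 of the 465, and these differences were not tested. Lbh, a transcriptional cofactor of the developing heart and limb, led with 140, then Nfix at 76.9, Zbtb20 at 69.5, Tsc22d1 at 63.7, Pura at 56.8 and Klf2 at 56.6. Factors of heart development included Nkx2-5 at 39.3, Gata4 at 28.2, Hand2 at 5.83 and Tbx5 at 3.18. The nuclear receptor Rxra had 41.7, the immediate early factors Jun and Junb had 35.6 and 5.16, and the coactivator Ppargc1a had 7.17.

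The genes named next from the remaining roles had only 3' UTR summits, and ranks are among such genes. In signalling, Ywhae, a 14-3-3 protein, led with 96.8, followed by the kinase Snrk at 54.7, Hras at 45.4, the G protein subunits Gna12 at 41.4 and Gnai2 at 40.9, protein kinase C epsilon Prkce at 37.7 and Egln1, the oxygen-sensing prolyl hydroxylase, at 32.7. In protein turnover, Aph1a, a subunit of gamma-secretase, had 130, the cochaperone Bag3 84.9 and the ubiquitin-conjugating enzyme Ube2r2 74.4. Among RNA-binding proteins, Serbp1 had 59.8, Larp1, which binds messages of the translation machinery, 59.6, Hnrnpm 35.0, Celf2 28.0, the deadenylase scaffold Cnot1 26.9, Elavl1 17.7 and the Argonaute Ago2 7.19. Fndc5, the precursor of irisin, led the secreted and receptor role with 113, ahead of Igfbp4 at 59.9 and Pdgfa at 47.7, while Igf1 had 4.33. Vamp5 at 56.1 and Cavin1, a coat protein of caveolae, at 80.8 were the strongest of the vesicle role among genes with only 3' UTR summits.

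Gene lists drawn up by pathway were counted for listed genes with a 3' UTR summit in 1 gene. Over 24 lists, 156 of 1306 genes had one (11.9%, 10.2 to 13.8), beside 2.6% of the 21770 protein-coding genes. The lists were written for the heart, while that background also counts genes silent there. Shares were highest for the intercalated disc and costamere (11 of 36), chromatin (14 of 60), the sarcomere and Z-disc (11 of 54) and heart transcription factors (11 of 54). They were 11 of 66 for ubiquitin and autophagy, 7 of 43 for insulin, AKT and mTOR, 12 of 77 for kinases and phosphatases, 6 of 40 for glucose and glycogen, 6 of 43 for chaperones, 10 of 73 for RNA binding and decay, 6 of 47 for fatty acids and 7 of 56 for mitochondrial dynamics. Smaller shares were found for antioxidant and iron genes (4 of 34), calcium handling (7 of 61), microtubules and traffic (7 of 64), the TCA cycle and shuttles (4 of 37), receptors (7 of 67), secreted ligands (5 of 69), translation factors (3 of 49), matrix (3 of 50), the cell cycle (2 of 39) and RNA modification with ribosome biogenesis (2 of 47).

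Whether the 3' UTR summit stood alone was also counted by list, beside 82.0% of all 567 genes, and differences between lists were not tested. All 10 RNA-binding genes, all 5 secreted ligands and 10 of 11 heart transcription factors had only 3' UTR summits. This was so for 3 of 11 sarcomere genes and 7 of 14 chromatin genes. In the sarcomere list the 3 were Tcap, Fhl1 and Des. The scaffold genes of translation initiation Eif4g1, Eif4g2 and Eif4g3 were the only translation factors with a 3' UTR summit, at 152, 21.0 and 12.1. Ubtf, a factor of ribosomal RNA transcription, at 18.4 and Dnmt3a, a DNA methyltransferase, at 3.84 were the 2 genes of the RNA modification and ribosome list. No ribosomal protein gene had one (0 of 77, upper bound 4.68%). Of 72 nuclear respiratory chain genes only Cox6b1 did, at 3.97 (1.39%, 0.0352 to 7.50). Both intervals include the 2.6% of all protein-coding genes with such a summit, and both lie under the 11.9% (10.2 to 13.8) of all listed genes. The shortest 3' UTR with a placed summit had 169 bases, and 3' UTR lengths were not compared between lists. Summits under the caller's threshold are not in the table, and a gene without one may still have been precipitated. Neither Nat10 nor Tnnt2, whose promoter drove the bait, had a 3' UTR summit of this kind.

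Markers of heart cell types were checked in the same way. Of 20 cardiomyocyte markers 5 had a 3' UTR summit in 1 gene, which were Ttn, Ryr2, Cmya5, Xirp2 and Ldb3, and 11 had a summit of any kind. None of these 5 had only 3' UTR summits. Of 64 markers of other cells, in which the promoter of the bait is not known to be active, 6 had one (9.38%, 3.52 to 19.3), and all 6 had only 3' UTR summits, beside 82.0% of all 567 genes. They were Cldn5 at 23.4, Eng at 20.2 and Flt1 at 5.12 for endothelium (3 of 12), Col1a1 at 24.9 and Pdgfra at 4.10 for fibroblasts (2 of 12), and Pdgfrb at 18.1 for mural cells (1 of 10). Markers of macrophages and leukocytes (0 of 12), red cells (0 of 6), Schwann cells and neurons (0 of 6) and the epicardium and fat (0 of 6) had none. Over all protein-coding genes 2.6% had one. The upper bound of a count of 0 was 26.5% for 12 markers and 45.9% for 6. A summit of any kind was found for 4 endothelial, 2 fibroblast, 1 mural and 1 macrophage or leukocyte marker. Which cells the RNA of these genes came from was not tested.

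Most genes had a single 3' UTR summit. It was 473 of 567 (83.4%, 80.1 to 86.4), while 79 had 2, 11 had 3, 3 had 4 and Zbtb20 had 6. Annotated 3' UTRs had a median length of 1641 bases in genes with 1 summit, 2186 with 2 and 3508 in the 15 genes with 3 or more. The rank correlation (Spearman) between number of summits and 3' UTR length was weak, 0.154 over the 567 genes. Of 115 gaps between neighbouring summits of a gene, 75 were within 1 peak and had a median of 296 bases, and 40 were between peaks with a median of 1488. Among 85 genes with several placed summits the strongest was the one nearest the end in 46 (54.1%, 43.0 to 65.0). Most of these genes had 2 summits, for which no preference would give an even split, and the interval includes that.

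Genes with many 3' UTR summits differed in where these lay. The 3 Kcnk3 summits scored 63.9, 170 and 65.7 at 2040, 1640 and 180 bases from the end, so that the strongest lay in the middle. Fndc5 had 113, 52.3, 29.4 and 85.2 at 1417, 1129, 563 and 222 bases, with the highest values at both ends of the run. In Jph2 the scores were 5.84, 31.4 and 95.2 at 1377, 837 and 395 bases and grew toward the end. Casz1, a zinc finger factor, had 47.7 at 1462 bases and 3 summits under 8 nearer the end. In Tcf4 the scores were alike, 35.1, 28.7 and 24.8 at 4696, 3514 and 221 bases. Zbtb20 had scores of 69.5, 52.4 and 39.2 at 15169, 12399 and 10445 bases before its RefSeq end, and 13.7, 10.97 and 1.36 beyond that end, in sequence that the deposited table places in its 3' UTR.

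**Figure D5:**
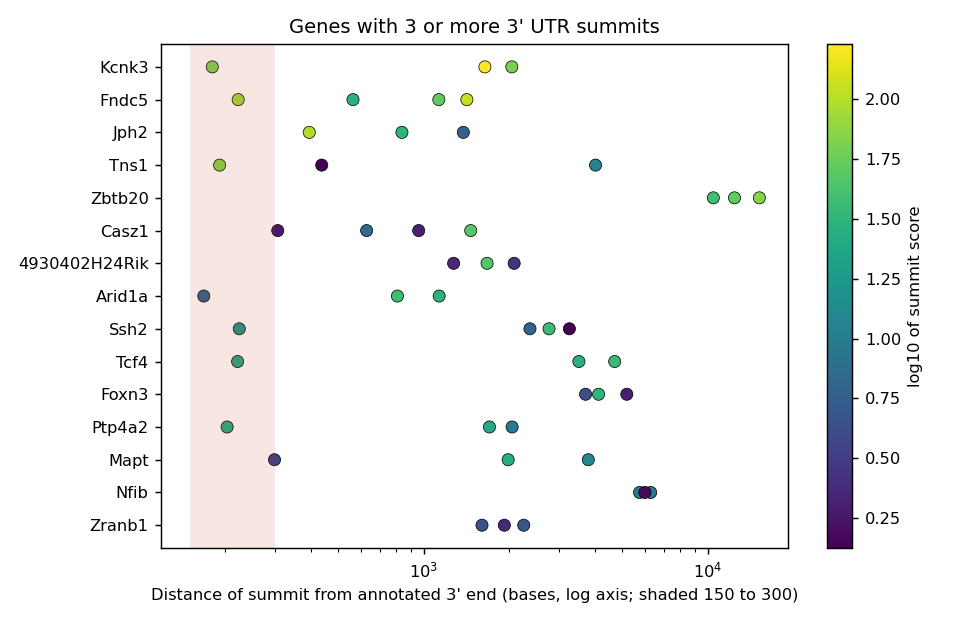
Distance of each summit from the annotated 3' end (x axis, bases on a log axis) in the genes with 3 or more 3' UTR summits (rows, strongest gene on top), coloured by the log10 of the score, with 150 to 300 bases shaded. Kcnk3, Fndc5, Tcf4 and others have 1 summit in the shaded band and more far from it, and the 3 Zbtb20 summits beyond the RefSeq end are not drawn.

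The 3' UTRs themselves also differed in length and bases. The genes with only 3' UTR summits had a median 3' UTR of 1931 bases and a median coding length of 1717 bases (462 genes with a 3' UTR of at least 50 bases). Genes with only coding exon summits (196) had medians of 1303 and 2376 bases, and genes with both kinds (86) had 1356 and 4998 bases. The 3' UTR made up a median of 45.6%, 30.2% and 22.5% of the transcript in these classes. The median GC content of the 3' UTR was 47.5% (quartiles 42.3 and 52.3) in genes with only 3' UTR summits and 47.3% in genes with both, against 43.2% (38.9 and 50.0) in genes with only coding exon summits and 43.2% in 19454 genes without a summit, and the quartile ranges overlapped. Cytidine, the base that NAT10 acetylates, made up a median of 23.1%, 23.3%, 21.4% and 21.5% of the 3' UTR in these 4 classes. The pattern CNNCNNCNN, cytidines spaced 3 bases apart, was searched on the sense strand with overlapping matches counted. It was present in 99.4% of the 3' UTRs of genes with only 3' UTR summits, at a median of 15.6 matches per 1000 bases. Genes with both kinds had 100% and 15.8. Genes with only coding exon summits had 93.4% and 12.7, and genes without a summit 93.7% and 12.1. The match rate moved with the cytidine content, and the 2 were not separated. A longer 3' UTR also has more places for a match. Its median length was 1097 bases in genes without a summit, against 1931 in genes with only 3' UTR summits. Presence was not adjusted for length. Sequence at the summits themselves was not used here. No 3' UTR summit lay in any of 1005 annotated microRNA hairpins, and 1, in Pde4dip, lay within 1000 bases of one.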

How the data were processed

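Paired reads of 150 bases were processed with fastp and aligned with BWA 0.7.12, per the series' design text. The submitters' processing notes list MACS2 2.1.0 and HOMER too, without their roles. The deposited score of each summit, taken as a -log10 value from its range, was used as given, to describe and rank. Overlap, gene and region were the authors' own, per the file headers. The notes name GRCm39, but 121 of 682 summits lay inside their gene on GRCm39 and 671 of 681 inside the RefSeq gene on GRCm38, so positions are GRCm38. RefSeq gave gene ends. GENCODE release 39 gave names, strands, and the lengths and bases of the 3' UTR of the canonical transcript, matched by identifier for all 567 genes. Summits shared by genes and the strand of reads are not resolved by the table, so antisense transcripts cannot be told apart. Members, lists, roles and named genes (the 20 strongest, those with 4 or more summits, the 20 strongest with only 3' UTR summits, up to 4 per list, the 3 weakest) were chosen with earlier results of these data known, and further genes were named from the role table after their values were seen. Shares carry exact 95% (Clopper-Pearson) intervals (scipy 1.17.1). The counting was checked on simulated tables. Alternatives raised the score threshold, merged summits within 200 bases, changed what counts as another summit, and changed gene ends.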

Additional observations from a re-analysis of the deposited data

How the results depend on the processing

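Counts followed the score threshold. At or above the median score of all summits there were 357 3' UTR summits in 327 genes, 286 of them with no other summit, and at or above the upper quartile 159, 143 and 121. Genes with exactly 1 such summit were then 92.7% and 91.6%, and listed genes with one 8.88% and 5.13%. The median score of 3' UTR summits minus that of coding exon summits was 2.91, turned to -0.76 at the median threshold, and the cause was not tested. It was 2.30 at the upper quartile, 3.04 with summits merged, 3.09 without the mitochondrial chromosome, 4.33 without Ttn and 5.94 with the strongest summit per gene and region. Counting only genes with no other summit gave 8.04% of listed genes, by construction. The share of placed summits 150 to 300 bases from the end, 43.5%, was 49.5% with the strongest summit per gene, 53.8% at or above the median score and 40.8% over all summits with a RefSeq end. With the table's own gene bounds it was 81 of 160 (50.6%), a smaller set. Those bounds are given only for the gene with the closest transcription start. These settings were chosen after seeing the data. The share was 43.3% with the longest annotated 3' UTR. Merging summits within 200 bases, leaving out the mitochondrial chromosome and the other definitions of another summit moved the count of genes with only 3' UTR summits to between 464 and 472. No paired analysis was possible because each kind of library was made once. Depth is unknown, so a missing summit sets no limit on the RNA.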
